A study of Mus musculus with 24 samples.

Results

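The deaminase genes other than Apobec1 were followed in mouse bone-marrow-derived macrophages that lack or carry a functional Apobec1 gene. They were chosen by name, as the enzymes and homologues that remove an amino group from cytidine or adenosine, and not by their values. All 9 members of 9 were found among the 23337 gene symbols of the count tables. They comprise the APOBEC family members Apobec3 and Apobec2, the adenosine deaminases acting on double-stranded RNA Adar and Adarb1, the tRNA deaminases Adat1, Adat2 and Adat3, the free-nucleoside enzyme Cda, and Cdadc1, a protein with a cytidine deaminase domain.

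The groups compared were Apobec1 -/- (KO) and wildtype (WT) cultures, 6 of each, all from C57BL/6J mice aged 6 to 12 weeks that were littermates or matched for age. Marrow precursors of both genotypes were matured for 7 days with macrophage colony-stimulating factor (M-CSF) at 20 ng/mL, and no other treatment is named. Each culture gave 1 library of ribosome-protected fragments (footprints, the stretches of mRNA that translating ribosomes shield from nuclease) and 1 of total RNA, so that 24 libraries were analysed. Cultures were labelled with a batch number. Cultures KO5, KO6, WT5 and WT6 made up batch 3; KO2, KO3, KO4 and WT4 made up batch 2; and KO1, WT1, WT2 and WT3 made up batch 1. What a batch shared is not stated, nor whether the cultures came from separate animals, so the p-values describe only how these samples spread, part of which may be technical.

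Deamination of adenosine gives inosine, which ribosomes and base pairing read as guanosine, and deamination of cytidine gives uridine. ADAR enzymes edit double-stranded RNA in this way and keep the cell's own duplex RNA from being taken for viral RNA, APOBEC3 proteins restrict retroviruses by deaminating their DNA, and ADAT enzymes make the inosine of tRNA. Adar is a known interferon-inducible gene in macrophages and other cells. Apobec1, the gene targeted in KO, edits C to U in RNA.

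Total RNA libraries held 5077478 to 12059361 gene counts and footprint libraries 29561 in WT6 to 3714912 in WT4, with 90773 in KO6. Levels are given as CPM, a count divided by the library's TMM-adjusted total, and the footprint to RNA ratio of a gene is its footprint CPM over its total RNA CPM. The transcript of the targeted gene was present in both genotypes, and Apobec1 RNA was higher in KO, at 604 to 1276 CPM, against 313 to 474 CPM in WT (log2 1.34, edgeR adjusted p = 0.000139). Its footprints were lower in KO (log2 -3.51, edgeR adjusted p = 5.13e-08), and its ratio, which takes in both differences, was at most 0.0211 in KO and at least 0.148 in WT. All 8 macrophage markers present in the tables were detected in the cultures. Their summed level was 15261 to 25129 CPM in batch 3, 27414 to 48905 CPM in batch 2 and 21442 to 28685 CPM in batch 1. Batch 1 thus overlapped both batch 3 and batch 2. Of the 8 markers, 7 had their lowest mean in batch 3, the exception being Cd68. All 12 neutrophil markers were detected, and their summed level was 441 to 590 CPM in batch 3, 153 to 590 CPM in batch 2 and 57.4 to 66.8 CPM in batch 1. Of the 12, 7 had their highest mean in batch 3, whereas 3 had their lowest there (Mmp9, Csf3r and Cxcr2). The 4 Y-linked genes examined summed to 1 or 2 counts per library in batch 3, against at least 973 elsewhere, and Xist had 172 to 386 counts in batch 3, against 2 to 11 elsewhere. Markers of B cells summed to at most 8.27 CPM and those of T cells to at most 0.528 CPM, with Cd3g at 0 in every library.

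Adar and Apobec3 were the members that moved together across batches, so their start regions are shown. The windows run from 250 bases before to 50 bases after an annotated start, from RefSeq on GRCm38.p6, the assembly that mm10 also names, and 8 of the 9 members matched a window. Capitals mark the letters AANNGAAA on either strand, the core that interferon regulatory factors are known to bind, a motif picked after these data had been seen. Adar has 3 windows, of which the one at chr3:89730468-89730767, plus strand, held 1 match, 30 bases after the start. Of the 2 windows of Apobec3, the one at chr15:79892158-79892457, plus strand, held 3 matches, 140 and 134 bases before and 38 bases after the start, and the first pair overlap.
Adar: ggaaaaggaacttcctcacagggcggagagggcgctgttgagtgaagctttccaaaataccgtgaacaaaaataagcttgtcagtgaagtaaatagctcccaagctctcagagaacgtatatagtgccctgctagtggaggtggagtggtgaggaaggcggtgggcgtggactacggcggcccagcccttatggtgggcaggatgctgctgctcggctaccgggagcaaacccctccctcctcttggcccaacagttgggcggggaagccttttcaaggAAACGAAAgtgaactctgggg
Apobec3: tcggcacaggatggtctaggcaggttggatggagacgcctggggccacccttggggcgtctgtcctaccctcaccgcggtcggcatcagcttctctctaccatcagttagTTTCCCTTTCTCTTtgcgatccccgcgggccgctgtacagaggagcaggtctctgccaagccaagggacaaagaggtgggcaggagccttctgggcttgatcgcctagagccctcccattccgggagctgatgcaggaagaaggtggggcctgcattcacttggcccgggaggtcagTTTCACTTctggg
In all, 5 members held a match, Adat2, Adat3 and Apobec2 being the others, while the windows of Adarb1, Cda and Cdadc1 held none. The same letters stood in 23.9% of all 32851 windows of this length and in 26.7% of the 27025 genes. A match therefore describes the letters only, and whether any match is bound was not tested.

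Of the double-stranded RNA deaminases, Adar, which encodes ADAR1 (chromosome 3, 89714469 to 89753455, GRCm38.p6), was measured deeply, with 610 to 1689 counts per total RNA library. In batch 3 its RNA was 92.2 and 124 CPM in KO5 and KO6, against 92.1 and 97.4 CPM in WT5 and WT6. In batch 2 it was 233, 228 and 221 CPM in KO2 to KO4, against 192 CPM in WT4. In batch 1 it was 141 CPM in KO1, against 134, 131 and 133 CPM in WT1 to WT3. The 3 batches did not overlap: every batch 2 culture was above every batch 1 culture, and every batch 3 culture was below. How many of all genes separate in this way was not counted. Batch differences were common, as 23.5% (batch 2 over batch 1) to 49.2% (batch 3 over batch 2) of all genes were called in total RNA. The mean was 173 ± 61.5 CPM over KO cultures and 130 ± 35.8 CPM over WT cultures (SD, 6 cultures per genotype), and their ranges overlapped.

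Adarb1, which encodes ADAR2, the editor of neuronal receptor transcripts (chromosome 10, 77290727 to 77418292), was near the limit of detection. Its RNA counts ran from 3 to 14 in KO libraries and from 1 to 22 in WT libraries, 110 in all. Its footprints came to 5 counts over the KO libraries and 2 over the WT libraries, with 8 of 12 libraries at 0. It fell under the filter on low counts in every comparison.

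Of the APOBEC genes, Apobec3 (chromosome 15, 79892058 to 79918218), the single mouse member of the APOBEC3 group, had 152 to 578 counts per total RNA library. In batch 3 its RNA was 21.4 and 27.1 CPM in KO5 and KO6, against 25.1 and 30.6 CPM in WT5 and WT6. In batch 2 it was 79.9, 62.3 and 72.5 CPM in KO2 to KO4, against 63.7 CPM in WT4. In batch 1 it was 47.8 CPM in KO1, against 44.9, 40.4 and 35.5 CPM in WT1 to WT3. Again the 3 batches did not overlap, with batch 2 highest and batch 3 lowest, whereas KO and WT did. As for Adar, the share of all genes that separate by batch was not counted. The span of Apobec3 shares 2415 bp with Cbx7 and 1081 bp with D730005E14Rik in the annotation, and whether counting used strand is not given in the sources used here.

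Apobec2, a muscle member of the family (chromosome 17, 48419231 to 48432728), was not detected as expressed. It had 0 counts in all 6 KO libraries and in 5 of 6 WT libraries of total RNA, with 1 count in WT1, and it had 0 footprints in all 12 cultures. The 4 skeletal muscle markers summed to at most 2.11 CPM of RNA. Over the pooled footprint libraries a count of 0 allows a level of up to 0.181 CPM, which is 3 counts, and covers counting error only. The single RNA count lay under the same floor of 3 counts, which is 0.0327 CPM over the pooled RNA libraries.

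**Figure D1:**
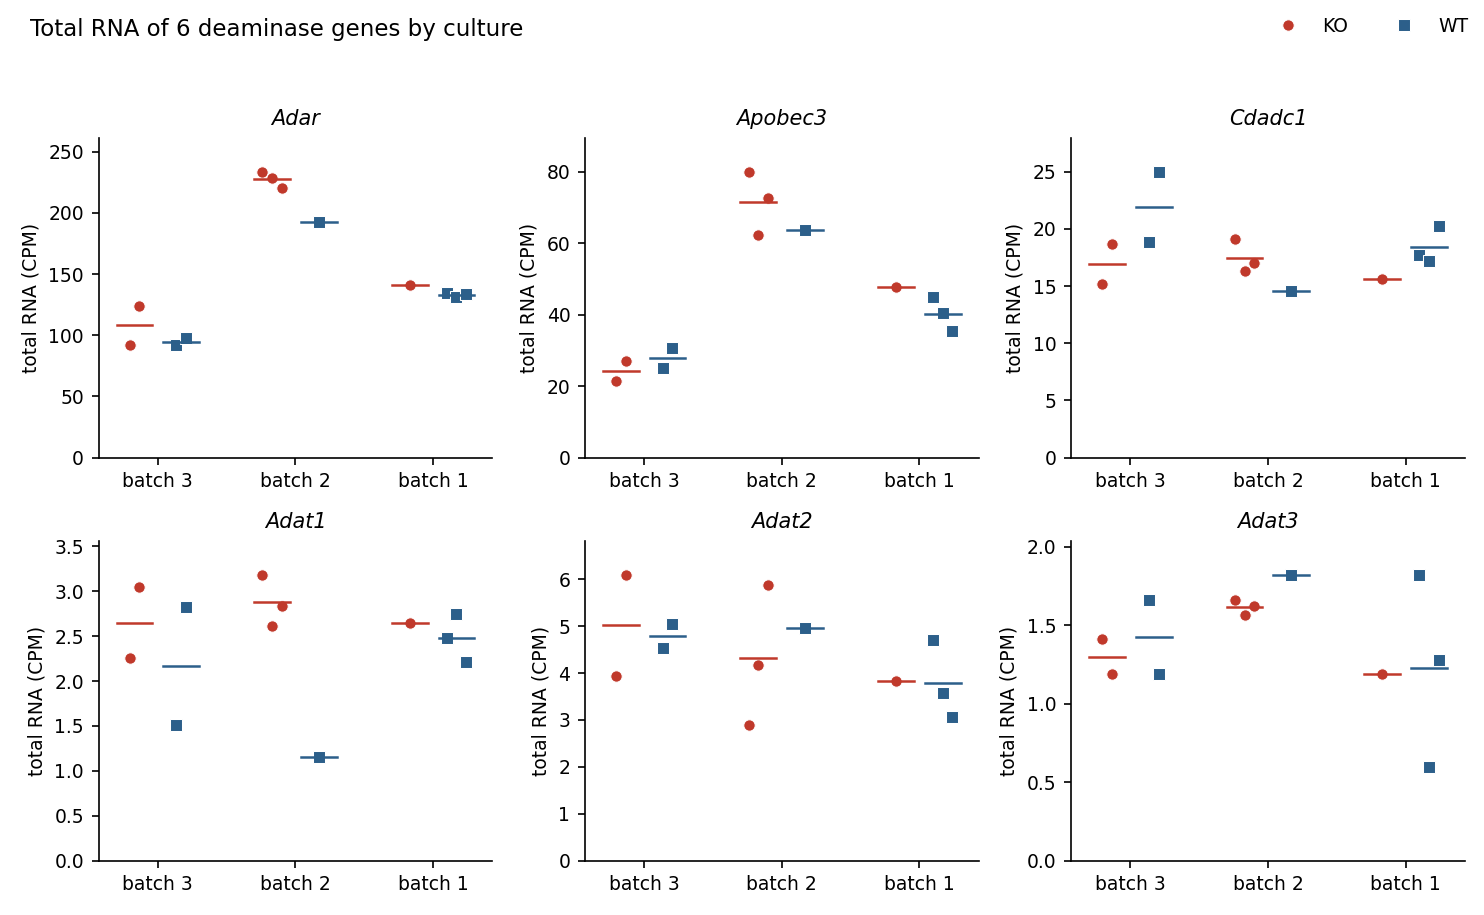
Total RNA of the 6 members that passed the count filter, in CPM on linear axes from 0, by batch, with KO cultures as red circles left of WT cultures as blue squares; bars are the mean of each genotype in a batch. Adar and Apobec3 form 3 separate levels by batch, with Adar at 92.1 to 124 CPM in batch 3, 192 to 233 CPM in batch 2 and 131 to 141 CPM in batch 1, while the other 4 overlap between batches. How many of all genes form separate levels was not counted.

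The tRNA deaminases were present at few counts. Adat2 and Adat3, which together form the enzyme that makes inosine at the wobble position of tRNA, and Adat1, which makes it beside the anticodon of alanine tRNA, were each seen in every total RNA library. Adat2 had 21 to 57 counts per library, Adat3 had 5 to 22 and Adat1 had 7 to 30. Adat2 (chromosome 10, 13552907 to 13563376) averaged 4.47 ± 1.25 CPM in KO and 4.32 ± 0.81 CPM in WT. Adat1 (chromosome 8, 111958920 to 111992307) averaged 2.76 ± 0.33 CPM in KO, where it ran from 2.26 to 3.18 CPM, and 2.15 ± 0.68 CPM in WT, where it ran from 1.16 CPM in WT4 to 2.82 CPM in WT6. Adat3 (chromosome 10, 80602880 to 80607654) averaged 1.44 ± 0.21 CPM over KO cultures and 1.39 ± 0.47 CPM over WT cultures (SD over 6 cultures for each of the 3 genes). The genotypes overlapped for each of the 3 genes. The span of Adat3 lies inside that of Scamp4 over 4773 of its 4775 bp, and its count is therefore uncertain.

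Of the enzymes named for cytidine, Cda, which deaminates free cytidine and deoxycytidine in pyrimidine salvage (chromosome 4, 138338528 to 138368311), was near the limit too, with 1 to 5 RNA counts in KO libraries and 1 to 6 in WT libraries. Its footprints came to 3 counts in KO and 2 counts in WT. Cdadc1 (chromosome 14, 59559386 to 59597985) had 84 to 238 RNA counts per library. Its RNA was lowest at 15.2 CPM, with a median of 16.7 and a highest value of 19.1 CPM, in KO, against 14.6, 18.3 and 24.98 CPM in WT. Cdadc1 RNA overlapped between genotypes and between all 3 batches, and its SD over the 12 cultures was 2.79 CPM around a mean of 18.0 CPM. Transcript lengths were not used here, so levels are not compared between genes.

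In footprints Adar and Apobec3 were the members that passed the filter on low counts. Adar footprints in batch 3 were 155 and 127 CPM in KO5 and KO6, against 110 and 80.4 CPM in WT5 and WT6. They were 233, 216 and 242 CPM in KO2 to KO4, against 219 CPM in WT4, in batch 2, and 200 CPM in KO1, against 183, 187 and 180 CPM in WT1 to WT3, in batch 1. The batches did not overlap, but the values of batch 3 rested on few reads: Adar had 3 footprint counts in WT6, where 3 counts equal 80.4 CPM. The share of all genes whose footprints separate by batch was not counted. Batch 2 over batch 1 was not called for Adar footprints despite the lack of overlap (edgeR adjusted p = 0.379).

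Apobec3 footprints in batch 3 were 59.2 and 42.4 CPM in KO5 and KO6, against 64.1 and 26.8 CPM in WT5 and WT6. They were 183, 168 and 163 CPM in KO2 to KO4, against 153 CPM in WT4, in batch 2, and 132 CPM in KO1, against 91.5, 84.0 and 99.6 CPM in WT1 to WT3, in batch 1. The order of the batches was that of its RNA, again with no overlap, and the WT6 value was 1 count, under the 3-count floor. Here too the share of all genes without overlap was not counted. Footprints of Cdadc1 numbered 0 to 61 per library, those of Adat2 0 to 24, those of Adat1 0 to 21 and those of Adat3 0 to 10.

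**Figure D2:**
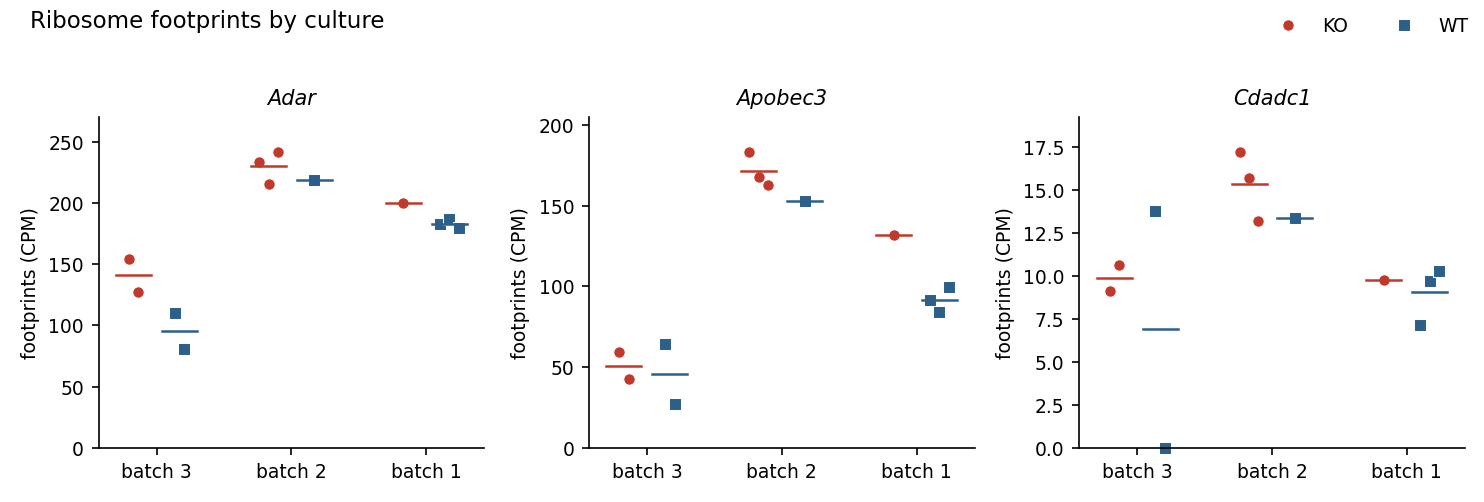
Ribosome footprints of Adar, Apobec3 and Cdadc1 in CPM on linear axes from 0, by batch, with KO cultures as red circles left of WT cultures as blue squares; bars are the mean of each genotype in a batch. Apobec3 stands at 26.8 to 64.1 CPM in batch 3, 153 to 183 CPM in batch 2 and 84.0 to 132 CPM in batch 1, and the Cdadc1 point at 0 is WT6, where 3 counts equal 80.4 CPM.

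The comparison that the study was designed for is KO over WT, that is, what changes when functional APOBEC1 is missing. A gene was called where the adjusted p of edgeR's quasi-likelihood test, with Benjamini-Hochberg adjustment over all genes tested, was under 0.05. No other deaminase was called between genotypes in RNA, in footprints or in their ratio. In total RNA 0 of the 6 members that passed the filter were called, against 0.0183% of 10942 genes tested. In footprints 0 of 2 were called, against 0.0832% of 7208 genes. In the ratio 0 of 5 were called, against 0.0093% of 10747 genes. The footprint background rested on 6 genes and moved with single cultures, from 0.0146% without WT4 to 3.45% without KO1, and the RNA background was 0.0819% without KO1. At an unadjusted p under 0.05 the count of members was also 0 in each, and DESeq2 called 0. Real differences could be missed: on simulated data a log2 change of 1 was found for 57.8% of changed genes in footprints and 41% in the ratio. Those genes were drawn from ones with many RNA counts, at a spread set beforehand. Adat1, Adat2 and Adat3, with 226, 394 and 129 RNA counts over all libraries, had fewer than any gene drawn. The shares therefore do not describe them.

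In total RNA the KO over WT difference of Adar was a log2 value of 0.17 (SE 0.082, unadjusted p = 0.051, edgeR adjusted p = 0.859). Within batches it was 0.18 in batch 3, 0.24 in batch 2 and 0.08 in batch 1, in log2 CPM. Without batch in the model the difference read 0.41, as 3 of 6 KO cultures but 1 of 6 WT cultures were in batch 2, and it was still not called (adjusted p = 0.999). Apobec3 was at 0.06 (SE 0.12, adjusted p = 0.935), with -0.20, 0.16 and 0.25 within batches 3, 2 and 1, and read 0.37 without batch in the model.

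Among the other tested members no difference was called either. Adat1 had the largest of the 6 differences in total RNA, 0.45 (SE 0.26, edgeR adjusted p = 0.859), on 7 to 30 counts a library. Adat2 was at -0.03 (SE 0.22), Adat3 at -0.13 (SE 0.30) and Cdadc1 at -0.16 (SE 0.13), all log2 differences with adjusted p of at least 0.859. In footprints Apobec3 was at 0.26 (SE 0.16, adjusted p = 0.715) and Adar at 0.16 (SE 0.14, adjusted p = 0.862). The genotype difference was not called as varying between batches for any member, 0 of 6 in total RNA against 0.987% of genes and 0 of 2 in footprints against 2.01%.

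**Figure D3:**
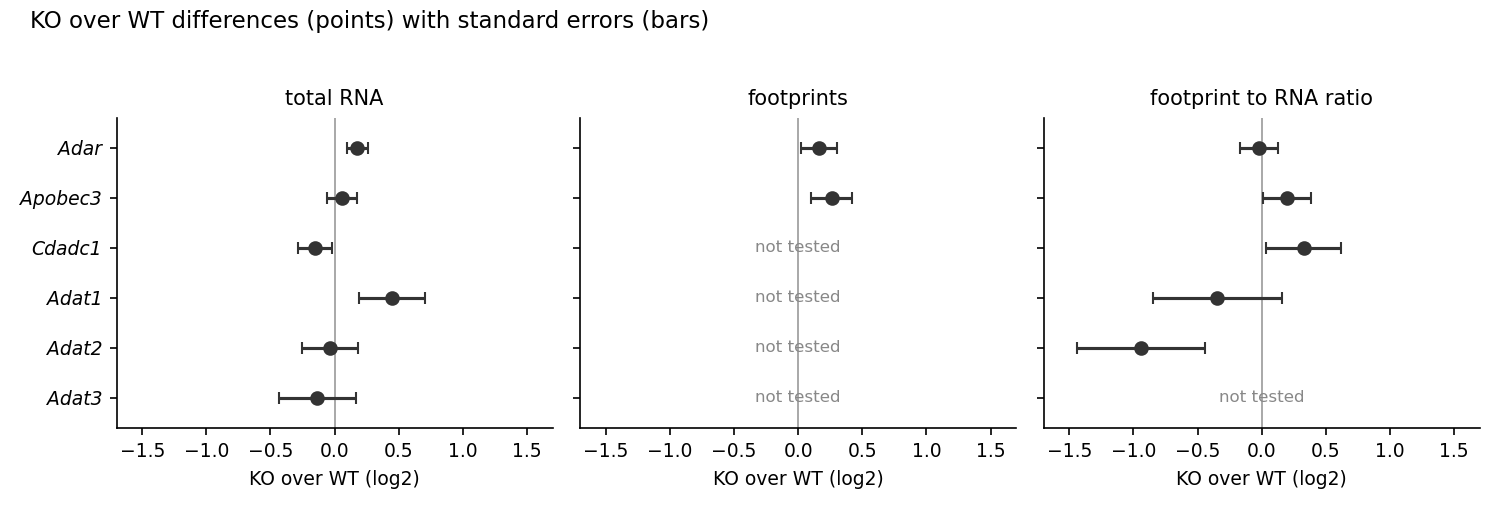
Log2 differences of KO over WT (points) with their standard errors (bars) for 6 members in total RNA, footprints and the footprint to RNA ratio, from the edgeR models; members under the count filter are marked as not tested. No difference was called, and the widest bars belong to the ratios of Adat1 and Adat2, which rest on few footprints.

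The ratio of footprints to RNA asks whether ribosome occupancy of a transcript differs beyond its RNA level. For Adar the ratio ran from 0.946 to 1.68 with a median of 1.06 in KO, against 0.825 to 1.43 with a median of 1.27 in WT. For Apobec3 it ran from 1.56 to 2.76 with a median of 2.50 in KO, against 0.875 to 2.81 with a median of 2.24 in WT. For Cdadc1 it ran from 0.568 to 0.958 with a median of 0.700 in KO, against 0 to 0.916 with a median of 0.536 in WT. All 3 overlapped between genotypes, and the lowest WT value of each was WT6, the shallowest footprint library.

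The fitted KO over WT difference in the ratio was -0.02 for Adar (SE 0.15), 0.20 for Apobec3 (SE 0.19) and 0.33 for Cdadc1 (SE 0.29), in log2, each with an edgeR adjusted p of 1. Adat2, the catalytic subunit of the wobble deaminase, had the lowest value, -0.94 (SE 0.50, adjusted p = 1, unadjusted p = 0.067), on 31 footprint counts over KO and 41 over WT. In the authors' deposited table over all genes, each member had an adjusted p of 1. The log2 value there was 0.84 for Adat3, 0.83 for Adat2, 0.19 for Adar, -0.025 for Adat1, -0.58 for Cdadc1 and -0.15 for Apobec3. The direction of that table is not given in the sources used here; its value for Apobec1 is 4.88 and its sign was opposite to the KO over WT ratio difference for 73.5% of 10745 genes, so it reads as WT over KO.

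Between batches some members were called, in contrasts where calls were common among all genes. Adar and Apobec3 were called in all 3 batch contrasts of total RNA, and Adat1, Adat2, Adat3 and Cdadc1 in none. A missing call does not show that a member differs from Adar and Apobec3. Adat1, Adat2 and Adat3 had few counts, with SE from 0.25 (Adat2, batch 3 over batch 1) to 0.36 (Adat3, batch 2 over batch 1). Against batch 2, batch 3 was 2.09-fold lower in Adar (log2 -1.06, SE 0.094, edgeR adjusted p = 1.75e-06) and 2.64-fold lower in Apobec3 (log2 -1.40, SE 0.14, adjusted p = 4.33e-06). These were 2 of 6 members tested, where 49.2% of all genes were called and 24.5% were called lower. The log2 differences of Adat1, Adat2, Adat3 and Cdadc1 lay between -0.32 and 0.16 in the same contrast, with adjusted p of at least 0.401.

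Against batch 1, batch 3 was lower in Adar by a log2 difference of -0.46 (adjusted p = 0.00138) and in Apobec3 by -0.71 (adjusted p = 0.000845), 2 of 6 members where 45.3% of genes were called and 22.3% called lower. Batch 2 was higher than batch 1 in Adar by 0.60 (edgeR adjusted p = 0.00134) and in Apobec3 by 0.69 (adjusted p = 0.00424), 2 of 6 members where 23.5% of genes were called and 12.7% called higher (12.2% called in all without WT4). The contrasts share batches and are not independent of each other. Batch calls were common among all genes. By the Y-linked and Xist counts, the cultures of batch 3 read as female and the others as male. Sex therefore cannot be told apart from whatever else batch 3 shared. The macrophage and neutrophil sums given above also differed between batches. However, the macrophage sums of batch 1 overlapped those of batches 3 and 2, and the neutrophil sums of batches 3 and 2 overlapped. The part of any of these in the differences was not tested. In such bulk samples fewer cells of a type and less RNA per cell cannot be told apart.

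Footprints followed RNA in the same order for Apobec3. Against batch 2, batch 3 was lower in Apobec3 footprints by a log2 difference of -1.53 (SE 0.24, edgeR adjusted p = 1.25e-05) and in Adar footprints by -0.82 (SE 0.19, adjusted p = 0.00143), 2 of 2 members where 22.5% of genes were called and 11.7% called lower (12.5% called in all without KO5). Against batch 1, batch 3 was lower in Apobec3 by -0.95 (adjusted p = 0.00712) and in Adar by -0.61 (adjusted p = 0.0246), 2 of 2 members where 20.8% of genes were called and 11.2% called lower (12.8% called in all without KO5). Without the shallow libraries KO6 and WT6 this Adar call was lost (log2 -0.56, adjusted p = 0.0610), and so it was without KO1 (adjusted p = 0.0511) or WT5 (adjusted p = 0.119).

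Batch 2 was higher than batch 1 in Apobec3 footprints by 0.59 (edgeR adjusted p = 0.0134), and Adar was at 0.21 (adjusted p = 0.379), 1 of 2 members where 15.4% of genes were called and 8% called higher (8.72% called in all without WT4). The Apobec3 call was lost without WT4, the deepest footprint library (log2 0.46, adjusted p = 0.216).

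In the batch contrasts of the ratio 0 of 5 members were called: none for batch 3 over batch 2, where 6.42% of genes were called, none for batch 3 over batch 1 (0.633%) and none for batch 2 over batch 1 (10%). These shares over all genes were 2.37% and 0.148% for batch 3 over batches 2 and 1 without KO5, and 3.04% for batch 2 over batch 1 without WT4. This model takes both libraries of a culture as independent. With a replicate block, a term for each culture that was added after the data had been seen, the counts over all genes were 1248, 230 and 2311 in these 3 contrasts, against 690, 68 and 1079, and still 0 of 5 members were called. The Adar ratio was 0.825 to 1.68 in batch 3, 0.946 to 1.14 in batch 2 and 1.35 to 1.43 in batch 1. Batches 2 and 1 did not overlap, and the fitted difference of batch 2 over batch 1 was -0.36 in log2 (SE 0.17, edgeR adjusted p = 0.184, unadjusted p = 0.0418), or -0.35 with the replicate block (adjusted p = 0.0805). The Cdadc1 ratio was 0 to 0.728 in batch 3, 0.774 to 0.958 in batch 2 and 0.401 to 0.626 in batch 1. Batch 2 lay above both of the others without overlap. The fitted difference over batch 1 was 0.69 (SE 0.34, edgeR adjusted p = 0.204), or 0.88 with the replicate block (adjusted p = 0.0763). Cdadc1 had 0 to 3 footprint counts per library in batch 3 and 3 to 14 in batch 1, and fell under the footprint filter. With so few counts a batch pattern cannot be told from counting error. The Adat1 ratio was 1.24 to 3.76 in batch 2 and 0.928 to 1.23 in batch 1, also without overlap. Its fitted difference of batch 2 over batch 1 was 0.996 (SE 0.60, edgeR adjusted p = 0.318). Adat1 too fell under the footprint filter, with 1 to 6 footprint counts per library in batch 1. How many of all genes lack overlap in the ratio, as for Adar, Cdadc1 and Adat1, was not counted.

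**Figure D4:**
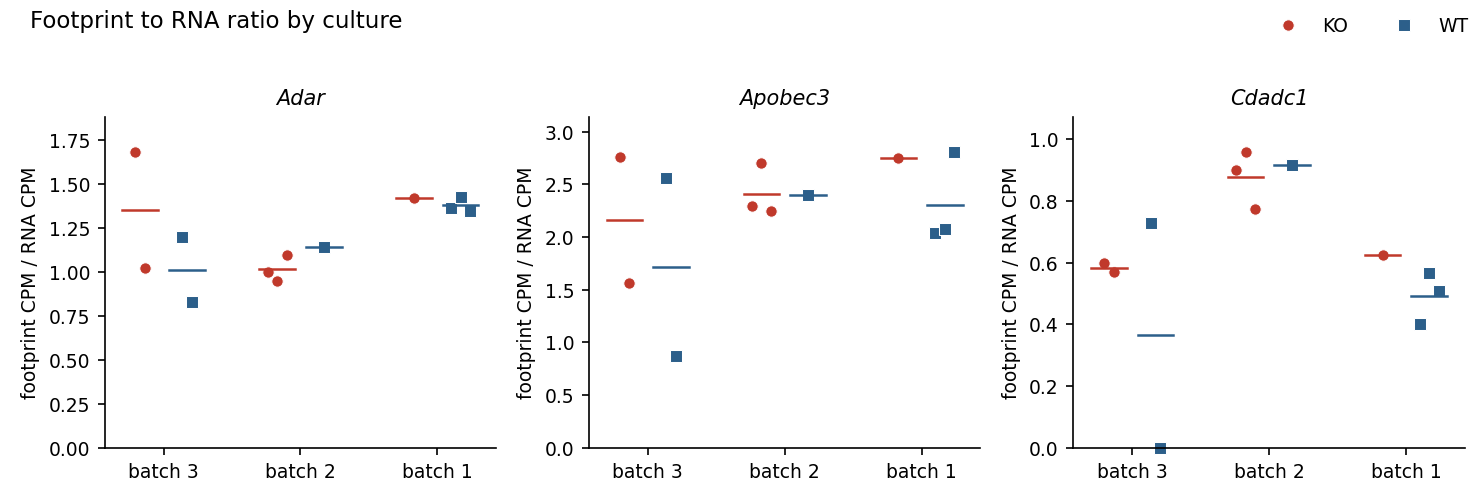
Footprint CPM over total RNA CPM of Adar, Apobec3 and Cdadc1 on linear axes from 0, by batch, with KO cultures as red circles left of WT cultures as blue squares; bars are the mean of each genotype in a batch. Adar lies at 0.946 to 1.14 in batch 2 and 1.35 to 1.43 in batch 1, and the spread is widest in batch 3, which holds the shallow libraries KO6 and WT6.

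Across the 12 total RNA libraries, the genes whose log2 CPM was most like that of Adar were Oasl2 (Pearson r = 0.991), Atf7ip (0.988) and Oasl1 (0.988), and for Apobec3 they were Trex1 (0.985), Svil (0.981) and BC013712 (0.978). Oasl1 and Oasl2 encode proteins of the oligoadenylate synthetase family, and Trex1 a DNA exonuclease. Adar and Apobec3 themselves correlated at 0.950, and at 0.429 once genotype and batch were taken out. All points share the 3 batch levels, so these are descriptions with no test. For Cdadc1 the most alike were Tmem19 (0.905), Socs4 (0.864) and Ccdc85b (0.823). For Adat1 they were Plxna2, Nbas and Cx3cl1 (0.923 to 0.942), for Adat2 Med9, Dok4 and Ppp1r37 (0.765 to 0.830), and for Adat3 Tmub1, 1810008A18Rik and Lynx1 (0.813 to 0.842).

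The pathways around the members were read from 5 lists. In the contrast of batch 3 over batch 2 in total RNA, 49.2% of all genes were called and 24.5% were called lower, and 50.1% of the called genes were higher. Of 19 genes that sense or bind double-stranded RNA, the substrate of ADAR1, 14 were called lower and 1 higher in batch 3 than in batch 2, with a median log2 difference of -0.90, against 0.01 over all genes. Zbp1, a sensor of Z-form nucleic acid that ADAR1 is known to hold in check, averaged 19.5 CPM in batch 3 and 116 CPM in batch 2 (log2 -2.59, edgeR adjusted p = 1.53e-07). Ifih1, which encodes the duplex RNA sensor MDA5, averaged 70.6 CPM in batch 3 and 177 CPM in batch 2 (log2 -1.29, adjusted p = 1.77e-07). Oasl1 was at -2.26 and Oasl2 at -1.37, both log2 differences.

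Of 14 genes that restrict retroviruses and retroelements, as Apobec3 does, 10 were called lower and 3 higher in batch 3 than in batch 2, with a median of -0.59, where the shares over all genes were those given above. Mov10, an RNA helicase that restricts retroelements, averaged 23.5 CPM in batch 3 and 88.7 CPM in batch 2 (log2 -1.84, edgeR adjusted p = 1.33e-06), and Trex1 averaged 45.5 CPM in batch 3 and 116 CPM in batch 2 (log2 -1.35, adjusted p = 2.80e-07). Isg20, an exonuclease of single-stranded RNA, was at -2.15 and Ifitm3, a membrane protein that hinders virus entry, at -1.31. The 3 called higher were Rnaseh2a, Rnaseh2b and Rnaseh2c, the subunits of ribonuclease H2, at log2 0.40, 0.78 and 0.44, which were singled out after their values were seen.

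Of 18 tRNA modification genes, 8 were called higher and 1 lower in batch 3 than in batch 2 (median 0.36), a share near the 49.2% of all genes called. They included Nsun2, a tRNA cytosine methyltransferase, at 0.56 (edgeR adjusted p = 0.000435), Trmt6, a subunit of a tRNA adenosine methyltransferase, at 0.59, Cdk5rap1, a mitochondrial tRNA methylthiotransferase, at 0.84, and Pus1, a pseudouridine synthase, at 0.37. Of 15 tested genes of pyrimidine salvage and turnover, the pathway of Cda, 6 were called higher and 4 lower (median 0.08), with Dut, the dUTPase, at 0.92, the UMP-CMP kinase Cmpk1 at 0.68, the mitochondrial kinase Cmpk2 at -0.91 and Dck, deoxycytidine kinase, at -0.81. Of 6 tested genes for other deaminases 1 was called, Ampd3, an AMP deaminase, at -2.04 (adjusted p = 5.77e-05).

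Between genotypes 0 genes of any of the 5 lists were called in total RNA, footprints or the ratio. The genes with the smallest p in total RNA on the duplex RNA list were Dhx58, at a KO over WT log2 difference of 0.22, and Oasl2, at 0.27. On the restriction list they were Rnaseh2c at -0.26 and Mov10 at 0.31, and on the tRNA list Pus7 at 0.33 and Cdk5rap1 at 0.34. Pyrimidine salvage had Cmpk2 at 0.26 and Ctps at 0.29, and the other deaminases Gda at -0.37 and Dctd at 0.43. Each had an edgeR adjusted p of 0.859. Of the 9 members, 3 in total RNA and 7 in footprints had too few counts to enter these tests.

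**Figure D5:**
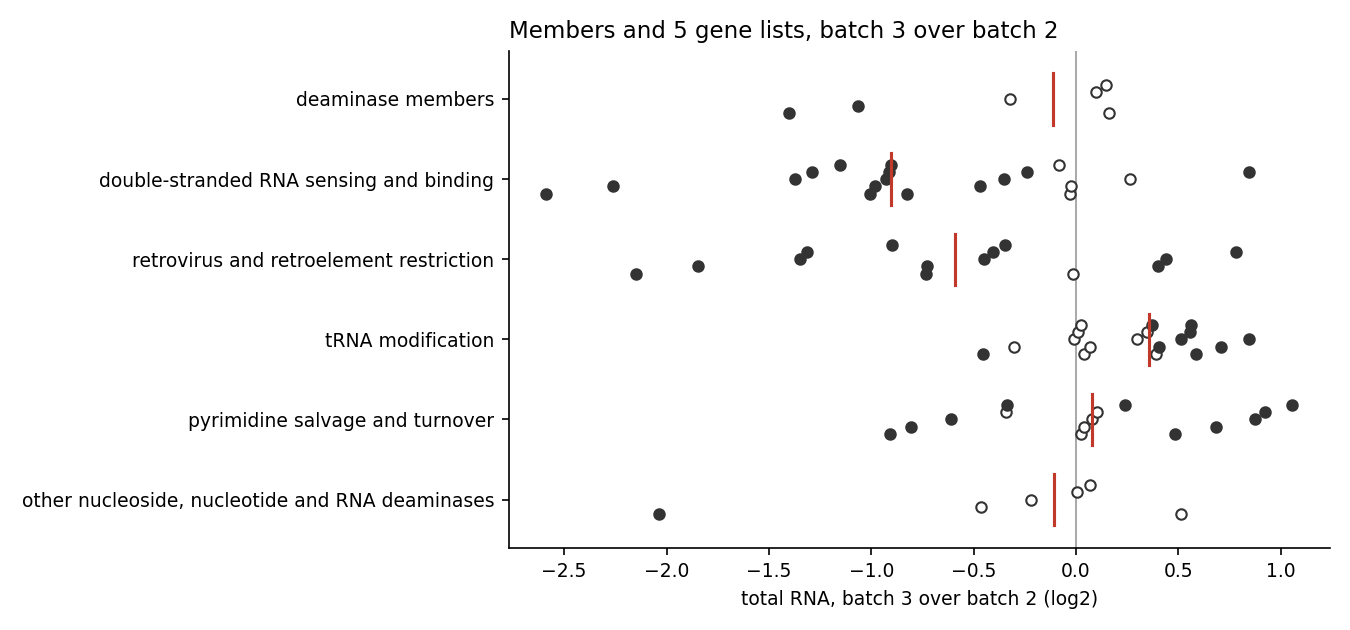
Log2 difference in total RNA of batch 3 over batch 2 for the 6 tested members and the tested genes of 5 lists; filled points were called, open points were not, points are spread vertically only to separate them, and red bars are medians. The duplex RNA and restriction lists have medians of -0.90 and -0.59 beside Adar at -1.06 and Apobec3 at -1.40, and the tRNA modification list has a median of 0.36.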

How the data were processed

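Total RNA and ribosome-protected fragments were measured in 6 KO and 6 WT cultures. The authors deposited raw counts of reads for each gene symbol. By their file names, fragments were counted over coding sequence, while total RNA counts are called strict and name no region, so a ratio is better compared between cultures than between genes. The submitters' processing notes list mm10 and, in no stated order, TopHat2 2.1.0, Bowtie 1.1.2, Cufflinks 2.2.1, HTSeq, Trim Galore, DESeq2 and DESeq. The sources used here do not state whether counting used strand. HTSeq's own summary lines stayed out of library sizes and tests (ambiguous reads were 0.243% to 0.338% of total RNA and 0.0281% to 0.121% of footprint reads), and genes absent from a table were taken as 0. The authors also deposited result tables whose columns, per the file headers, hold a mean count (a signal scaled by the authors), a log2 fold change with its error, a test score, and p-values before and after adjustment.

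The test was edgeR's quasi-likelihood F-test (edgeR 4.0.16 under R 4.3.3) on TMM-scaled counts, with a robust fit, a filterByExpr minimum count of 10, and a Benjamini-Hochberg adjusted p under 0.05 as threshold. Genotype and batch were both terms of the model. The ratio was tested as the interaction of molecule with genotype or batch over the 24 libraries. That model takes both libraries of a culture as independent. Their deviations from genotype means correlated at 0.219 to 0.558, over 0.1 in 12 of 12. These deviations still hold the batch differences, so they do not measure the dependence left in the model. Footprints of KO4, WT2, WT5 and WT6 correlated more with the total RNA of another culture than with their own. Log2 CPM used a prior count of 2. The models were tested on simulated data with 200 changed genes, drawn from genes with many RNA counts, at a spread set beforehand. Adat1, Adat2 and Adat3 had fewer RNA counts than any gene drawn, so the shares below do not describe them. In KO over WT a log2 change of 1 was found for 100% of them in total RNA, 57.8% in footprints and 41% in the ratio. For a log2 change of 2 the shares were 100%, 100% and 92%. False calls numbered 7, 4 and 15. Alternatives were DESeq2 1.42.0, RLE scaling, no filter, no batch term, a replicate block, leaving out KO6 and WT6, and leaving out each culture in turn. The replicate block was a term for each culture in the ratio, and a term for each culture number in total RNA and footprints. The members are named whatever their values. Of each list the text names the up to 4 called genes with the smallest p in batch 3 over batch 2 in total RNA. Where none is called it names 2, as for KO over WT in total RNA. Genes named after their values were seen are marked as such. For each tested member the 3 genes of highest correlation are named. The members and lists were chosen with earlier results of these data known, and support nothing on their own. Intervals and floors cover counting error only. Transcript lengths and protein sequences were not used here.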

Additional observations from a re-analysis of the deposited data

Results flagged for a closer look

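In a check of 50 groups of 4 or 6 cultures for a value far from the others, 1 stood out, and chance alone flags about 1 in 20. It was the total RNA level of Adar in batch 3, where KO6 had 124 CPM, while the nearest other culture had 97.4 CPM and the lowest 92.1 CPM. Without KO6 the KO over WT difference of Adar in total RNA was 0.10 in log2 (edgeR adjusted p = 0.942), against 0.17 with all 12 cultures.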

How the results depend on the processing

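Of 873 log2 values of members under other settings, 819 kept their direction and their side of the threshold, 4 kept only the direction, and 50 changed sign; no value that changed sign was called in either setting, and the cause of each change was not tested. The counts of members called were the same under every alternative run, apart from footprints. For batch 3 over batch 1 the count was 1 without KO6 and WT6, and 1 to 2 with 1 culture left out, and for batch 2 over batch 1 it was 0 to 1, against 2 and 1.

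Sign changes without KO6 and WT6 were in the ratio 0.019 for Adar in KO over WT, 0.049 for Apobec3 in batch 3 over batch 2, and 0.14 for Adat1 and 0.28 for Cdadc1 in batch 3 over batch 1, and in total RNA -0.24 for Adat1, -0.10 for Adat2 and -0.0089 for Cdadc1 in batch 3 over batch 2, and -0.034 for Cdadc1 in batch 3 over batch 1 and -0.026 for it in batch 2 over batch 1. In KO over WT, no batch term gave 0.0093 for the Adat1 ratio, 0.052 for Adat2 RNA and 0.041 for Adat3 RNA, and the replicate block gave 0.0033 for Adat2 RNA and -0.0196 for Apobec3 RNA. In batch 3 over batch 1, DESeq2 gave ratios of 0.074 for Adat1 and 0.049 for Cdadc1, and RLE scaling 0.038 and the replicate block (added after the data had been seen) 0.16 for Cdadc1. With no filter, Cdadc1 RNA in batch 2 over batch 1 was -0.0030.

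With 1 culture left out, values that changed sign ranged in the ratio for KO over WT from -0.13 to 0.066 (Adar), for batch 3 over batch 2 from -0.17 to 0.23 (Adar) and -0.55 to 0.57 (Adat2), for batch 3 over batch 1 from -0.10 to 0.97 (Adat2) and -0.55 to 0.19 (Cdadc1), and for batch 2 over batch 1 from -0.25 to 0.78 (Adat2) and -0.24 to 0.0011 (Apobec3). In total RNA they ranged for KO over WT from -0.16 to 0.047 (Adat2) and -0.029 to 0.14 (Apobec3), for batch 3 over batch 2 from -0.16 to 0.24 (Adat1), -0.034 to 0.29 (Adat2) and -0.0196 to 0.28 (Cdadc1), for batch 3 over batch 1 from -0.0402 to 0.39 (Adat3), and for batch 2 over batch 1 from -0.52 to 0.051 (Adat1) and -0.068 to 0.23 (Cdadc1).

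Nothing in the labels says that KO and WT cultures of the same number are paired, although numbers 1, 4, 5 and 6 also share a batch: their deviations correlated at 0.027 to 0.807 in total RNA and 0.073 to 0.328 in footprints, with 5 of 6 over 0.1 in each. In total RNA and footprints the replicate block was a term for each culture number, which treats these cultures as paired. In the ratio it was a term for each culture. With the replicate block 0 members were called in KO over WT. The count over all genes was 0 in total RNA, 3 in footprints and 1 in the ratio, against 2, 6 and 1. Over all genes, KO over WT in total RNA called 7 with DESeq2, 10 with no filter and 1 without KO6 and WT6; in footprints it called 3 with DESeq2, 159 with no filter and 1 with no batch term; and in the ratio 26 with no filter. Batch 3 over batch 1 in the ratio called 157 with DESeq2 and 103 with no filter, against 68. The interaction in total RNA called 370 with DESeq2, 841 with no filter and 163 without KO6 and WT6, against 108, and in footprints 228 with no filter, against 145. With 1 culture left out, the count over all genes ranged for KO over WT in footprints from 1 (without WT4) to 269 (without KO1), and was 9 in total RNA without KO1. Without WT4, batch 2 over batch 1 called 1345 in total RNA, 597 in footprints and 328 in the ratio (445 without KO1), against 2572, 1108 and 1079. Without KO5, batch 3 called 990 over batch 1 and 974 over batch 2 in footprints, against 1498 and 1623, and 16 and 256 in the ratio, against 68 and 690; the ratio count over batch 1 was 19 to 40 without KO1, KO4, KO6, WT1, WT2 or WT3. Scaling set the centre of the batch 3 ratios: the median of all genes was -0.15 over batch 1 and -0.16 over batch 2 with TMM, and -0.03 and -0.0078 with RLE, and the share of higher among called genes was 41.2% and 26.1% with TMM, 65.7% and 53.1% with RLE, and 70.7% and 57.9% with DESeq2. Footprint depth in batch 3 limits every footprint and ratio value there.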
